A study of Mus musculus with 13 samples.

Results

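The genes of the fibrous sheath and the outer dense fibers of the mouse sperm tail were followed in purified round spermatids of males with transgenic knockdown of Slx and Slxl1, of Sly, or of both. The genes were listed by name: Akap3, Akap4, Fsip1, Fsip2, Fsip2l, Ropn1, Ropn1l, Spa17, Odf1 and Odf2. Of these 10 genes, 9 had a probe on the array, with 20 probes in all, and Fsip2 was not analysed here. A probe was kept where it was detected above the negative controls, at a detection p-value under 0.05, on at least 3 of the 13 arrays. This kept 18 of the 20 probes and left 8 genes to test among 14660 genes or unnamed probes. Ropn1l had a single probe, which was detected on no array.

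The fibrous sheath surrounds the axoneme along the principal piece of the sperm tail. Its scaffold is made of A-kinase anchoring proteins, which bind the regulatory subunits of protein kinase A and so hold the kinase along the tail. The outer dense fibers accompany the axonemal doublets and stiffen the tail, and are held together by proteins rich in cysteine. Most of the messengers for both structures are made in spermatids, where many of them are stored before the proteins are assembled during elongation.

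The arrays comprised 3 from shSLX1shSLY males, which carried both transgenes, 3 from shSLY males (the line also called sh367), 3 from shSLX1 males and 4 from their non-transgenic siblings (WT). All males were on the MF1YRIII background and about 8 weeks old. The transgenes make short hairpin RNAs, so that the targets are reduced and not deleted. Each array was hybridized with RNA from round spermatids purified by elutriation or sedimentation from the pooled testes of several males, so an array stands for a pool and not for an animal. WT, shSLY and shSLX1 arrays are the shared controls of several comparisons below, which are therefore not independent of each other.

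Between 17066 and 17533 of the 45281 probes were detected on shSLX1shSLY arrays, 17663 to 19057 on shSLY, 16432 to 17842 on shSLX1 and 16110 to 18251 on WT. Sly was measured by a single probe, with log2 signals of 10.30, 10.39 and 10.63 in shSLX1shSLY, 10.39, 10.08 and 10.71 in shSLY, 9.22, 8.65 and 10.21 in shSLX1, and 10.19, 10.35, 9.86 and 9.85 in WT, by the labels. It was not lower on the arrays labelled shSLY, so the probe did not check the labels, and group names below are those of the labels. The mean log2 signal over 8 round spermatid genes lay between 12.62 and 12.78 on all 13 arrays. When the arrays were clustered on the 20382 probes detected on none of them, they fell into 3 sets that no label names. Set 1 held WT 1 and 2 with shSLY 1 and 2, set 2 held WT 3 and 4 with shSLX1 1 and 2, and set 3 held shSLY 3, shSLX1 3 and all 3 shSLX1shSLY arrays. No WT array lay in set 3, so that the double transgene and the third set cannot be told apart in a direct comparison with WT. None of 7 marker lists (round spermatid, spermatocyte, Sertoli, Leydig, peritubular, macrophage and red blood cell) separated set 3 from the other arrays, and none separated shSLX1shSLY from WT. The spermatocyte mean was 9.07 to 9.39 in set 3 and 8.44 to 9.82 elsewhere. Elsewhere it was 8.44 to 8.72 in set 1, all below set 3, and 9.04 to 9.82 in set 2. The red blood cell mean, over 3 genes, was 5.98 to 8.02 in set 3 and 5.70 to 10.13 elsewhere. Between other groups some lists did not overlap, and their part in the results was not tested. The peritubular mean, over 3 of 4 genes, was 4.73 to 5.33 in shSLX1shSLY against 5.78 to 5.96 in shSLX1, and the Leydig mean, over 3 of 6 genes, was 5.89 to 6.41 in shSLY against 5.48 to 5.61 in WT. The red blood cell mean was 5.98 to 6.27 in shSLX1shSLY against 8.02 to 10.13 in shSLY, and the macrophage mean, over 5 of 7 genes, 5.48 to 6.24 against 6.35 to 6.51. In shSLY against shSLX1 the Leydig, macrophage, Sertoli and red blood cell means were all higher and the peritubular mean lower, and in shSLX1 against WT the peritubular mean was higher, without overlap.

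Fsip2l and Ropn1 were the listed genes that passed the test, so the stretches around their annotated starts are shown first. Fsip2l (gene 209005) lies on the X chromosome at chrX:48841458-48877815 and Ropn1 (gene 76378) on chromosome 16 at chr16:34649832-34678610, both in the GRCm38.p6 assembly of RefSeq. Each stretch runs from 250 bases before to 50 bases after an annotated transcript start, at chrX:48877664-48877963 on the minus strand for Fsip2l and at chr16:34650961-34651260 on the plus strand for Ropn1. Capitals mark matches, on either strand, to 4 motifs: the cAMP response element TGACGTCA, which CREM binds in spermatids, its half-site TGACG, the X-box half-site GTTGCC, which RFX factors bind, and the TATA box TATAAA.
Fsip2l: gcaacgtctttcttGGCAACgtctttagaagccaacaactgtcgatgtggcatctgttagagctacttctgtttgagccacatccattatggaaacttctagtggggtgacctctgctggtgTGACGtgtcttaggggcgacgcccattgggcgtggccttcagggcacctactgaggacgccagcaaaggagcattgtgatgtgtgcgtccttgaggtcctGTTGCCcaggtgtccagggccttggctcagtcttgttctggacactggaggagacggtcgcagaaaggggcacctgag
Ropn1: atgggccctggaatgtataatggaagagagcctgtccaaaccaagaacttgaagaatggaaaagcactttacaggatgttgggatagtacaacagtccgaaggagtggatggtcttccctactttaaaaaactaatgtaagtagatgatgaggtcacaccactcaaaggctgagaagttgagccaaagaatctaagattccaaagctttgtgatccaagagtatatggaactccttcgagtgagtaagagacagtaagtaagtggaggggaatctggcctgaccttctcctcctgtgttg
The Fsip2l stretch held 1 cAMP half-site, at -128 from the start, and 2 X-box half-sites, at -236 on the reverse strand and at -28. The Ropn1 stretch held a match to none of the 4 motifs. It lies wholly inside the annotated gene, so its start is not the gene's first base, and the bases around that first base were not searched. Of all 32851 stretches of this kind, 1.79% held the full response element, 20.8% its half-site (every full element also counts as a half-site), 12.5% the X-box half-site and 13.6% the TATA box. RefSeq stretches were at hand for 8 of the 10 genes. None of them held the full element or the TATA box, the cAMP half-site was also found in Fsip2 and in 2 of the 4 Odf2 stretches, and the X-box half-site also in Ropn1l. A match is a match of letters only.

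A gene was called changed where limma's adjusted p was under 0.05 and the change exceeded 1.5-fold. In shSLX1shSLY against WT, Fsip2l and Ropn1 were higher, at 3.46-fold and 1.96-fold, and the other 6 tested genes were not called. Against shSLX1 the double had only Fsip2l called, 3.43-fold higher. The size for this dim probe depended on the background correction: its log2 change against WT was 1.79 as normalized here, 1.17 with no background correction and 1.15 on the authors' normalized values, called in each. No listed gene was called in shSLY against WT, in shSLX1 against WT, in shSLX1shSLY against shSLY, in shSLY against shSLX1, or for the interaction of both transgenes. In purified cells as in bulk tissue, a larger share of one spermatid stage and more RNA per cell cannot be told apart.

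**Figure D1:**
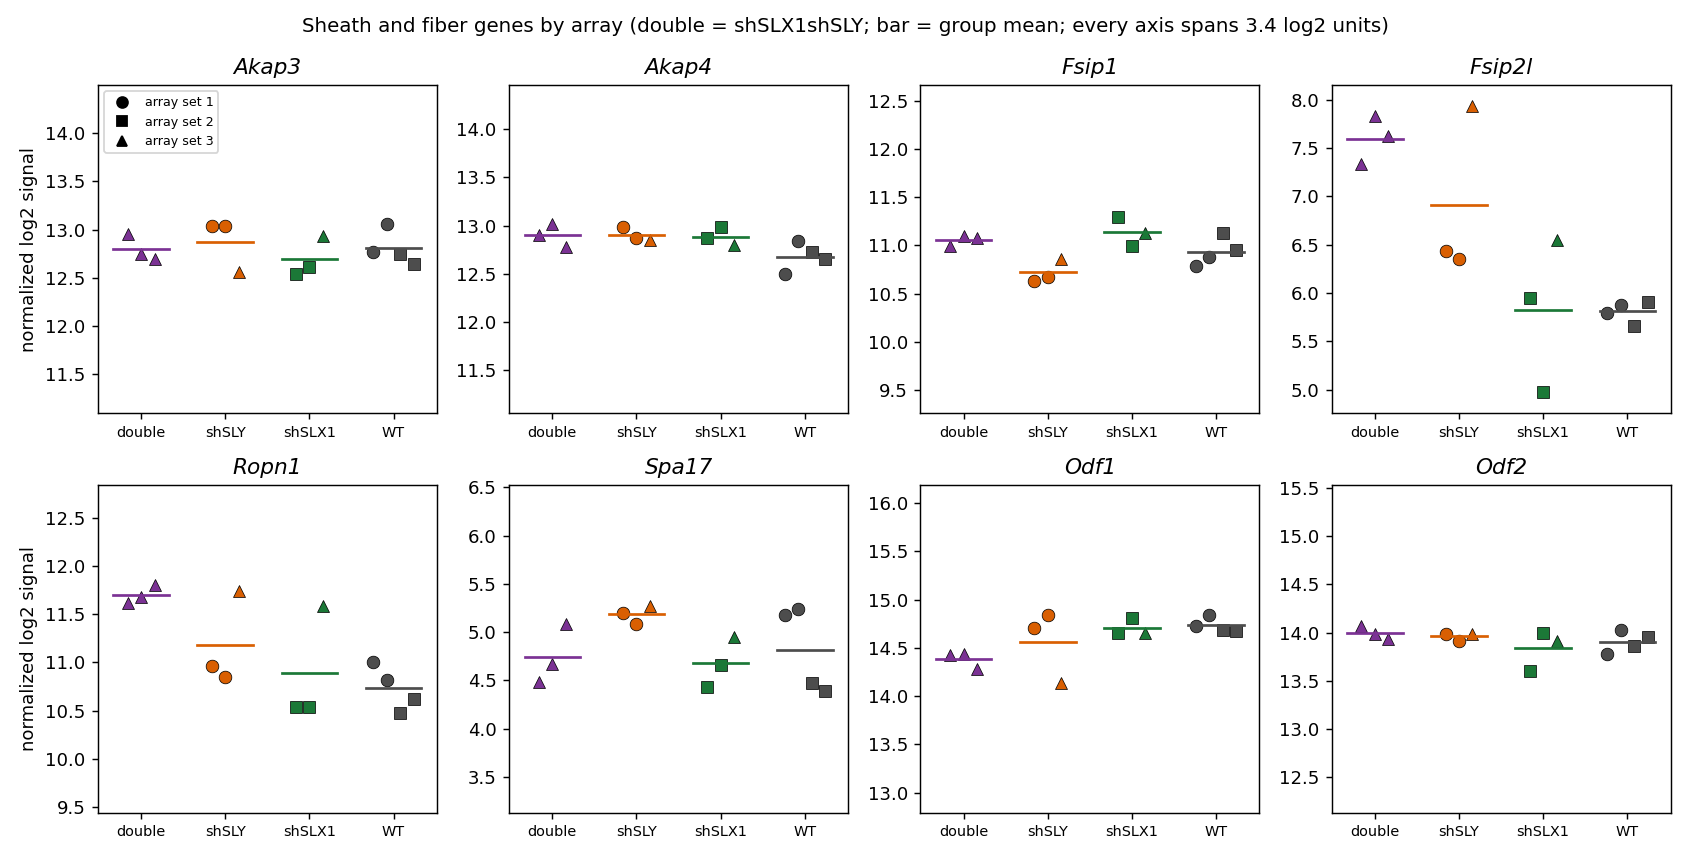
Normalized log2 signal (vertical axis) of the 8 tested genes on each array, with groups along the horizontal axis, array sets as symbols and group means as bars. Fsip2l and Ropn1 are high on the 5 triangles of set 3, from 6.55 to 7.94 and from 11.59 to 11.81, above all other arrays. None of the other 6 genes is higher on all of set 3. Odf1 is low on set 3, up to 14.65, the value at which the other arrays begin.

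These counts were read against all 14660 features. The call was passed by 8.89% of them in shSLX1shSLY against WT (4.86% higher and 4.03% lower), where 2 of the 8 listed genes were called higher and none lower. Of these calls 54.6% were higher, and 4.78% were when each array was scaled to a common median, which called 22.3% of all features and put the median of all features at -0.35. In shSLX1shSLY against shSLX1 it was passed by 7.54% (3.56% higher, 3.98% lower), with 1 listed gene called higher and none lower. In shSLY against WT 3.08% passed (2.33% higher, 0.75% lower), in shSLX1 against WT 1.78% (1.67% higher, 0.109% lower), in shSLY against shSLX1 6.84%, in shSLX1shSLY against shSLY 0.102% and for the interaction 1.37%, each with 0 of the 8. In those 5 comparisons 1, 0, 2, 1 and 0 of the listed genes had an unadjusted limma p under 0.05. The share of all features at that looser threshold is not given here, so these 5 counts stand without a background. The median log2 change over the 8 genes was 0.10 in shSLX1shSLY against WT, 0.15 in shSLY against WT and -0.01 in shSLX1 against WT, beside medians of -0.02 over all features in each of the 3. Arrays of shSLX1shSLY and WT did not overlap for 3 of the 8 genes (Fsip2l and Ropn1 above, Odf1 below), as for 34.8% of all features. Arrays of shSLY and WT did not overlap for 2 (Fsip2l and Akap4, both above), as for 17.3% of all features, and arrays of shSLX1 and WT for none, where 12.3% of all features did not overlap. Between shSLY and shSLX1 there was no overlap for 2 (Fsip1 below, Spa17 above), as for 21.3% of all features. Between shSLX1shSLY and shSLY there was none for 2 (Fsip1 above, Spa17 below), as for 21.9%. Between shSLX1shSLY and shSLX1 there was none for 3 (Fsip2l and Ropn1 above, Odf1 below), as for 26.3%.

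By their brightest probes, the scaffold genes of the sheath showed no call in any of the 7 comparisons. Akap3, an anchoring protein of the sheath that is made early in its assembly, had a log2 signal of 12.95, 12.75 and 12.70 on shSLX1shSLY arrays, 13.03, 13.03 and 12.56 on shSLY, 12.54, 12.61 and 12.94 on shSLX1 and 12.77, 13.06, 12.75 and 12.64 on WT. All groups overlapped, and the difference between shSLX1shSLY and WT was 0.00 on the log2 scale (95% interval -0.35 to 0.34). Akap4, the X-linked gene for the most abundant protein of the sheath, had 12.90, 13.02 and 12.78 on shSLX1shSLY arrays, 12.99, 12.87 and 12.85 on shSLY, 12.87, 12.98 and 12.80 on shSLX1 and 12.49, 12.84, 12.73 and 12.65 on WT. The 3 transgenic means exceeded the WT mean by 0.22, 0.22 and 0.21 (SE 0.13 each), and adjusted p-values were 0.25, 0.44 and 0.56. Only the shSLY arrays were all above WT, narrowly. When each array was scaled to a common median, the shSLX1shSLY difference from WT turned to -0.24 and the shSLX1 difference to -0.11.

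The 5 kept probes of Akap4 differed in shSLX1shSLY against WT, with changes between -0.40 and 0.81. In shSLY against WT all 5 were higher, by 0.22, 0.47, 0.39, 0.51 and 0.53 from the brightest to the dimmest, 4 of them with every shSLY array above every WT array, and none was called. Arrays of these 2 groups did not overlap for 17.3% of all features. The 5 probes read 1 gene on the same arrays and are not independent of each other. With every kept probe tested on its own, 9.58% of 20250 probes were called in shSLX1shSLY against WT and 6.68% in shSLX1shSLY against shSLX1. The bright probe ILMN_3128227 was called in the first of these, with 12.997, 13.16 and 12.92 on shSLX1shSLY arrays and 12.33, 12.48, 12.44 and 12.39 on WT, a change of 0.61 (SE 0.14, adjusted p = 0.0205). It also read 13.12 on shSLY 3 and 12.94 on shSLX1 3, so that all 5 arrays of set 3 were above the other 8, which reached 12.87. Among the 14660 features tested, 7.17% had this pattern. Within sets the probe was 0.36 higher in shSLY than in WT and 0.25 higher in shSLX1 than in WT, and the shSLX1shSLY mean differed by -0.09 from shSLY 3 and by 0.08 from shSLX1 3. The brightest probe, ILMN_2773339, which stands for the gene above and is annotated to the same transcript, changed by 0.22. ILMN_2648635, annotated to a second transcript (NM_001042542), gave 10.58, 11.81 and 10.16 on shSLX1shSLY arrays, against 11.25, 11.25, 11.33 and 11.18 on WT. There the shSLX1shSLY arrays lay on both sides of WT, and the difference of -0.40 (SE 0.29, adjusted p = 0.36) was not called. The dim ILMN_2759971, detected on 7 arrays, was 0.81 higher in shSLX1shSLY than in WT (adjusted p = 0.0679), and ILMN_3051805 was 0.20 higher (adjusted p = 0.582).

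**Figure D2:**
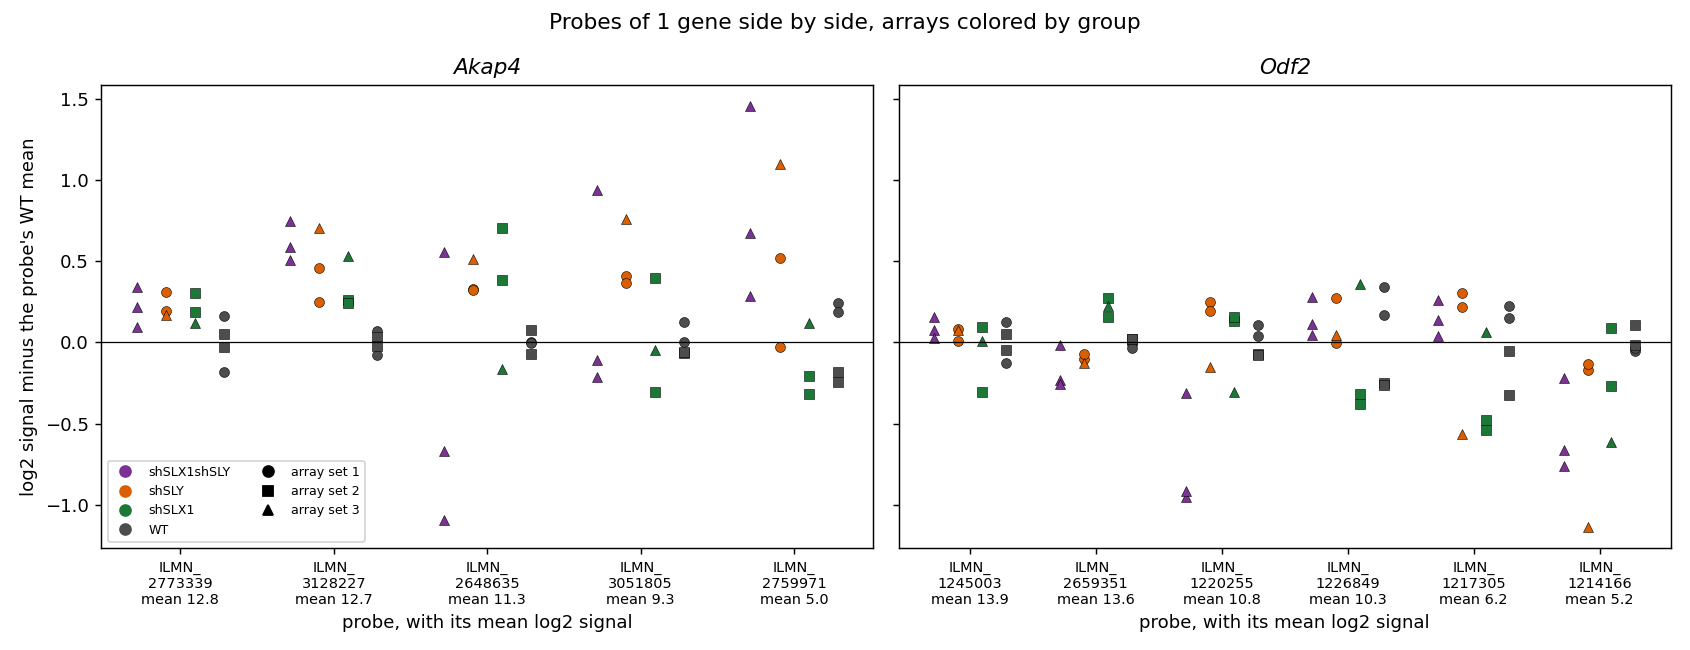
Log2 signal of each kept probe of Akap4 and Odf2 minus that probe's WT mean (vertical axis) on every array, by probe along the horizontal axis. The shSLX1shSLY arrays lie above WT for the Akap4 probe ILMN_3128227, by 0.61 on average, and below it for the Odf2 probe ILMN_1220255, by 0.72, while the brightest probe of each gene moves by 0.22 or less.

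Among the partners of the scaffold, Fsip2l varied most. The gene is named for its likeness to Fsip2, whose product binds the AKAP4 protein, and it was read by 1 probe (ILMN_1214389) annotated to NM_001085499. Its raw signal was dim, at 194, 239 and 216 on shSLX1shSLY arrays, 149, 140 and 243 on shSLY, 128, 85.6 and 153 on shSLX1 and 108, 120, 108 and 123 on WT, against a median of 53.4 to 78.1 over the probes detected nowhere. It was detected on 12 of the 13 arrays, and on shSLX1 2 its detection p-value was 0.063. The normalized log2 signal was 7.34, 7.84 and 7.62 on shSLX1shSLY arrays, 6.43, 6.35 and 7.94 on shSLY, 5.94, 4.97 and 6.55 on shSLX1 and 5.79, 5.88, 5.66 and 5.91 on WT. Every shSLX1shSLY array and every shSLY array was above every WT array, while the shSLX1 arrays lay on both sides.

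Taken singly, Fsip2l on shSLY 3 exceeded the WT mean by 2.13, more than any shSLX1shSLY array (1.53, 2.03 and 1.81). On shSLX1 3 it exceeded the WT mean by 0.74, whereas shSLX1 1 and 2 differed from it by 0.13 and -0.84. The arrays shSLY 1 and 2 exceeded it by 0.62 and 0.54. Replicate 3 was thus 1.55 above the other 2 shSLY arrays and 1.09 above the other 2 shSLX1 arrays, and the group means carried the spread: 7.60 ± 0.25 in shSLX1shSLY, 6.91 ± 0.89 in shSLY, 5.82 ± 0.80 in shSLX1 (SD, n = 3 each) and 5.81 ± 0.11 in WT (SD, n = 4). In that order of means, shSLX1 and WT differed by 0.01 (95% interval -0.76 to 0.79), and shSLX1shSLY and shSLY by 0.69 (-0.14 to 1.52).

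The shSLX1shSLY arrays were higher in Fsip2l than WT by 1.79 on the log2 scale (SE 0.36, adjusted p = 0.0142) and than shSLX1 by 1.78 (SE 0.39, adjusted p = 0.0121). The differences of 1.10 between shSLY and WT (SE 0.36, adjusted p = 0.144) and of 1.09 between shSLY and shSLX1 (SE 0.39, adjusted p = 0.113) were not called. Over 25 alternative settings the adjusted p of shSLX1shSLY against WT ran between 0.000141 and 0.643, and it stayed called in 24 of them. Against shSLX1 it was called in 23 of 25, and without shSLX1 2 the difference was 1.35 (adjusted p = 0.0642, range over the settings 0.0001 to 0.0769). Without shSLY 3, shSLX1shSLY exceeded shSLY by 1.21 (adjusted p = 0.0276, range over the settings 0.00235 to 0.836), a setting that called 12.7% of all features.

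Ropn1 encodes ropporin, a sheath protein that binds A-kinase anchoring proteins through a region like that of the kinase's regulatory subunit. Its log2 signal was 11.61, 11.68 and 11.81 on shSLX1shSLY arrays, 10.96, 10.85 and 11.74 on shSLY, 10.54, 10.54 and 11.59 on shSLX1 and 11.01, 10.82, 10.48 and 10.62 on WT. The 3 shSLX1shSLY arrays and both replicate 3 arrays lay between 11.59 and 11.81, and the next highest array, WT 1, was 0.58 below the lowest of them. Unlike Fsip2l, the arrays shSLY 1 and 2 lay within the WT range. The means were 11.70 ± 0.10 in shSLX1shSLY, 11.18 ± 0.49 in shSLY, 10.89 ± 0.60 in shSLX1 (SD, n = 3 each) and 10.73 ± 0.23 in WT (SD, n = 4).

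Ropn1 was higher in shSLX1shSLY than in WT by 0.97 (SE 0.26, adjusted p = 0.0325), but the call was lost when any of 6 single arrays was left out (WT 2, 3 or 4, or any shSLX1shSLY array), with adjusted p-values up to 0.105, and over all 26 settings they ran between 0.000479 and 0.971. Its difference of 0.81 from shSLX1 (SE 0.28, adjusted p = 0.0821) was not called with all arrays. Without shSLX1 3 that difference was 1.16 (adjusted p = 0.00497, range over 26 settings 0.000351 to 0.828), where 17.8% of all features were called.

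**Figure D3:**
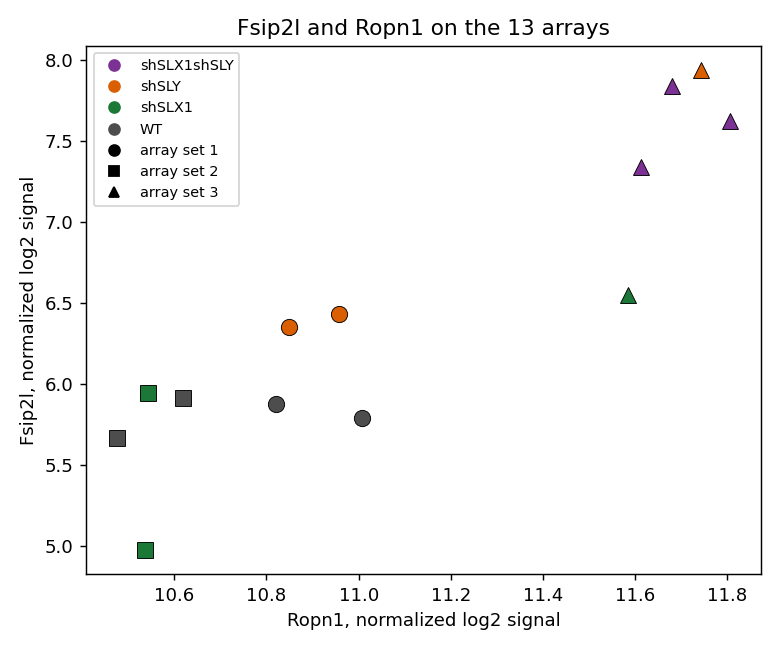
Normalized log2 signal of Fsip2l (vertical axis) against that of Ropn1 (horizontal axis) on the 13 arrays, with groups as colors and array sets as symbols. The 5 arrays of set 3 lie to the right, from 11.59 upward, and the other 8 end at 11.01; along the vertical axis shSLX1 3 is lowest of the 5, at 6.55.

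Over the 13 arrays Fsip2l and Ropn1 had a Pearson correlation of 0.91, given as a description, since the arrays share groups and sets. They were the listed genes for which all 5 arrays of set 3 stood above all 8 others, a pattern shown by 1051 of the 14660 features (7.17%). They were also the listed genes for which replicate 3 stood over 1.5-fold above replicates 1 and 2 in both single lines, as 578 features (3.94%) did. Replicate 3 exceeded replicates 1 and 2 in Ropn1 by 0.84 in shSLY and 1.05 in shSLX1.

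The 2 genes differed once arrays of 1 set were compared. Within set 1, shSLY exceeded WT by 0.56 in Fsip2l and by -0.01 in Ropn1. Within set 2, shSLX1 differed from WT by -0.33 in Fsip2l and by -0.01 in Ropn1. Within set 3, the shSLX1shSLY mean differed from shSLY 3 by -0.34 in Fsip2l and -0.04 in Ropn1, and from shSLX1 3 by 1.05 and 0.11. These within-set values rest on 1 or 2 arrays a side and carry no test.

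With the array set as a term in the fit, Ropn1 changed by 0.03 in shSLX1shSLY against WT (SE 0.15, adjusted p = 0.971), and Fsip2l by 0.47 (SE 0.30, adjusted p = 0.643). In that fit the shSLX1shSLY arrays meet WT only through the single lines, and 0.3% of all features were called, with none of the 8 genes. Against shSLX1, Fsip2l was 0.92 higher (SE 0.27, adjusted p = 0.0769), where 5.2% of all features were called and again none of the 8. Between shSLY and shSLX1, Fsip2l was 1.14 higher in shSLY (SE 0.26, adjusted p = 0.0214) and was called, as were 6.32% of all features, with adjusted p-values of 0.0214 to 0.364 over the alternatives. Between shSLY and WT it was 0.68 higher (SE 0.23, adjusted p = 0.146) and was not.

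**Figure D4:**
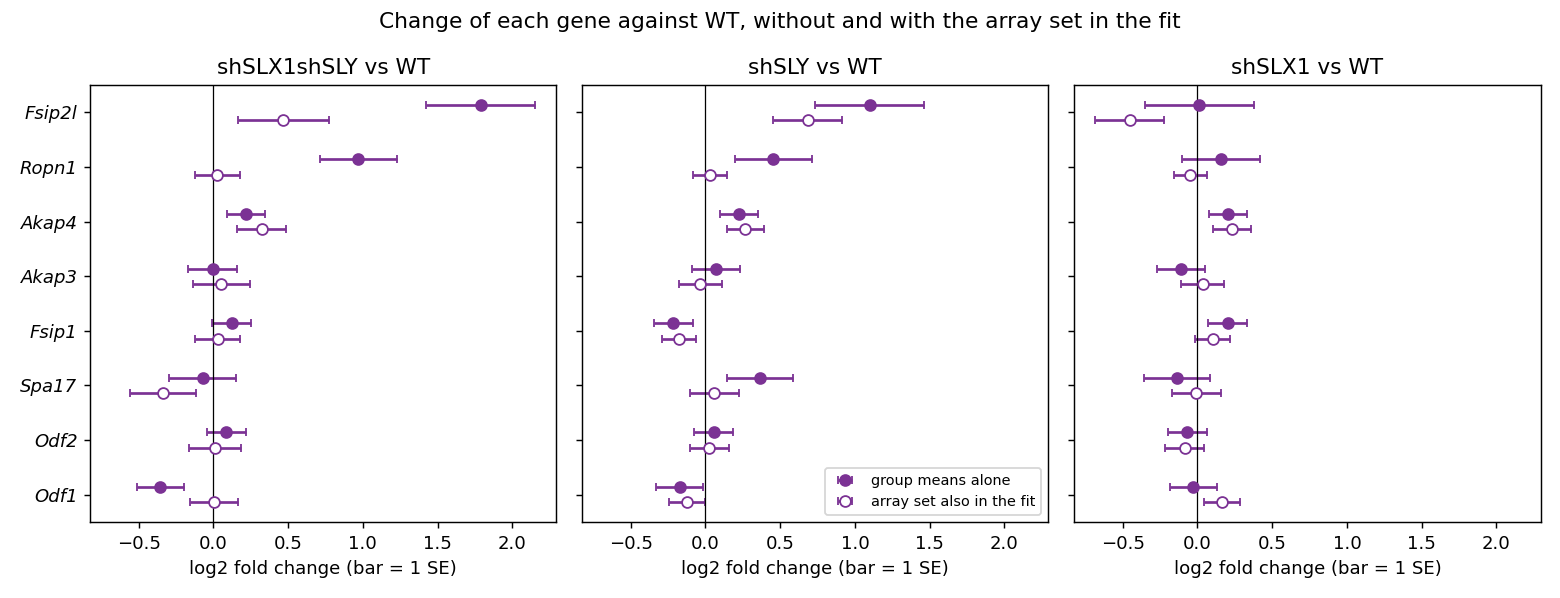
Log2 fold change against WT (horizontal axis, bars 1 SE) of the 8 genes, from group means alone (filled) and with the array set also in the fit (open), for shSLX1shSLY, shSLY and shSLX1. In the left panel Ropn1 moves to 0.03 with the set in the fit, against 0.97 from group means alone, and Fsip2l to 0.47, against 1.79.

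When both replicate 3 arrays of the single lines were left out, a setting chosen after seeing the data, shSLX1shSLY exceeded shSLY in Fsip2l by 1.21 (adjusted p = 0.00491) and in Ropn1 by 0.80 (adjusted p = 0.0055, range over 26 settings 0.00325 to 0.996). That setting called 16% of all features in this comparison, 2348 against 15 with all arrays. In the same setting the interaction of both transgenes was 1.56 for Fsip2l (adjusted p = 0.0109) and 0.99 for Ropn1 (adjusted p = 0.0147), and 11.3% of all features were called for it, 1659 against 201 with all arrays. With all arrays it was 0.68 for Fsip2l (SE 0.53, adjusted p = 0.713) and 0.36 for Ropn1 (SE 0.38, adjusted p = 0.796), and over all settings the adjusted p ran between 0.0109 and 0.993 for Fsip2l and between 0.0147 and 0.995 for Ropn1. Without those arrays every shSLX1shSLY array is in set 3 and every other array outside it.

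The remaining partners were not called in any comparison. Fsip1, whose product also binds AKAP4, had a log2 signal of 10.998, 11.10 and 11.08 on shSLX1shSLY arrays, 10.63, 10.68 and 10.86 on shSLY, 11.30, 10.99 and 11.13 on shSLX1 and 10.79, 10.88, 11.12 and 10.96 on WT. All shSLY arrays were below all shSLX1 arrays, by 0.42 on average (SE 0.14, adjusted p = 0.0876), and below all shSLX1shSLY arrays, by a mean difference of 0.34 (SE 0.14, adjusted p = 0.208). Against WT the shSLY difference was -0.21 (SE 0.13, adjusted p = 0.469) and the shSLX1 difference 0.20 (SE 0.13, adjusted p = 0.58). A second Fsip1 probe, ILMN_1251618, was not called either, and its highest value, 8.63 on shSLX1 1, stood apart from the 7.46 to 8.03 of all other arrays.

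Spa17, a sperm protein with the same kinase-anchoring region as ropporin, was near the detection limit. It was detected on 1 shSLX1shSLY array, 3 shSLY arrays, 1 shSLX1 array and 2 WT arrays, with log2 signals between 4.39 and 5.27. The shSLY arrays, at 5.20, 5.09 and 5.27, were above the shSLX1shSLY arrays (4.49, 4.67 and 5.08) and the shSLX1 arrays (4.43, 4.66 and 4.95). WT 1 and 2, at 5.18 and 5.24, lay with the shSLY arrays of their set, and WT 3 and 4 were at 4.47 and 4.39. The shSLY difference from shSLX1 was 0.50 (SE 0.24, adjusted p = 0.237), and within set 1 shSLY and WT differed by -0.07. Ropn1l, the ropporin-like gene, read 4.40 to 4.72 on all arrays, not above background on any of them.

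The outer dense fiber genes were not called by their brightest probes. Odf1, the cysteine-rich main protein of the fibers, had a log2 signal of 14.42, 14.43 and 14.28 on shSLX1shSLY arrays, 14.71, 14.85 and 14.14 on shSLY, 14.65, 14.81 and 14.65 on shSLX1 and 14.73, 14.85, 14.69 and 14.67 on WT. All 3 shSLX1shSLY arrays were below all WT and all shSLX1 arrays, and the lowest array of all was shSLY 3. No array of set 3 was above any array outside it, with shSLX1 3 and shSLX1 1 tied at 14.65. The difference between shSLX1shSLY and WT was -0.35 (SE 0.16, adjusted p = 0.141), and with the array set in the fit it was 0.01 (SE 0.16). Scaling each array to a common median, with the shift of all features given above, gave -0.75 for Odf1 (adjusted p = 0.037, range over 26 settings 0.0191 to 0.994), the one setting of these in which it was called. Over the 13 arrays Odf1 had correlations of -0.87 with Fsip2l and -0.79 with Ropn1.

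Odf2, a fiber protein that also sits at the centrosome and basal body, had 14.07, 13.98 and 13.93 on shSLX1shSLY arrays, 13.99, 13.91 and 13.98 on shSLY, 13.60, 14.00 and 13.92 on shSLX1 and 13.78, 14.03, 13.86 and 13.96 on WT, by its brightest probe. All groups overlapped, and shSLX1shSLY differed from WT by 0.09 (95% interval -0.19 to 0.36). Of its 6 kept probes, ILMN_1220255 was called. It gave 9.98, 10.62 and 10.01 on shSLX1shSLY arrays, 11.18, 11.12 and 10.78 on shSLY, 11.06, 11.08 and 10.62 on shSLX1 and 11.04, 10.97, 10.86 and 10.85 on WT. It was lower in shSLX1shSLY than in WT by a change of -0.72 (SE 0.18, adjusted p = 0.0255) and than in shSLX1 by a change of -0.72 (SE 0.19, adjusted p = 0.0355). All 5 arrays of set 3 were below the other 8 for this probe, a pattern shown by 1043 of the 14660 features (7.11%). Within set 3 the shSLX1shSLY mean differed by -0.57 from shSLY 3 and by -0.42 from shSLX1 3. The second brightest probe, ILMN_2659351, annotated to the same transcript, changed by -0.17 against WT (SE 0.12, adjusted p = 0.342). Against shSLX1 it changed by -0.39 (SE 0.13, adjusted p = 0.0744), with all shSLX1shSLY arrays below all shSLX1 arrays. The dim ILMN_1214166 changed by -0.55 against WT (SE 0.23, adjusted p = 0.123), also without overlap. ILMN_1226849 and ILMN_1217305 went the other way, each by 0.15 against WT (adjusted p = 0.635 and 0.665).

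Genes that work beside the listed ones were read from 5 lists. Of 9 other fibrous sheath genes, 6 were tested, and Akap14, an X-linked A-kinase anchoring protein, was the one called. It was called in shSLY against WT, where 3.08% of all features were, and in shSLX1shSLY against WT (8.89%). It was also called against shSLX1 in shSLX1shSLY (7.54%) and in shSLY (6.84%). It had a log2 signal of 10.90, 11.06 and 10.93 on shSLX1shSLY arrays, 11.41, 11.19 and 11.37 on shSLY, 10.30, 10.03 and 10.23 on shSLX1 and 10.20, 10.26, 10.34 and 10.25 on WT. The shSLY and shSLX1shSLY arrays were all above the WT and shSLX1 arrays, whichever set they lay in. All shSLX1shSLY arrays were below all shSLY arrays, with a difference of -0.36 (SE 0.13, adjusted p = 0.17) that was not called. Akap14 was higher than shSLX1 by 1.14 in shSLY (SE 0.13, adjusted p = 8.77e-05) and by 0.77 in shSLX1shSLY (SE 0.13, adjusted p = 0.00213). It was higher than WT by 1.06 in shSLY (SE 0.12, adjusted p = 0.000347) and by 0.70 in shSLX1shSLY (SE 0.12, adjusted p = 0.00749). With the array set in the fit, which called 3.28% of all features in shSLY against WT, the shSLY difference was 1.05 (adjusted p = 0.00043) and the shSLX1shSLY difference 0.63 (adjusted p = 0.125). Over 26 settings the adjusted p ran between 1.19e-06 and 0.0309 for shSLY and between 0.000642 and 0.334 for shSLX1shSLY.

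Of 12 other outer dense fiber genes, 10 were tested and Ccdc42 was called. It was called in shSLX1shSLY against WT, as were 8.89% of all features, and against shSLX1, as were 7.54%. Its product is not a fiber protein as such but is needed for sperm tail formation in mice. It had 8.45, 8.24 and 8.38 on shSLX1shSLY arrays, 6.52, 6.49 and 8.20 on shSLY, 5.65, 6.05 and 8.03 on shSLX1 and 6.45, 6.45, 6.36 and 6.58 on WT. Set 3 was again above all other arrays, as for 7.17% of all features. Ccdc42 was higher in shSLX1shSLY than in WT by 1.90 (SE 0.47, adjusted p = 0.0258) and than in shSLX1 by 1.78 (SE 0.50, adjusted p = 0.0407). The call against shSLX1 held in 4 of the 13 fits that left out 1 array, with differences of 1.32 to 2.51, and with the array set in the fit the difference was 0.46 (adjusted p = 0.167, range over 26 settings 1.89e-06 to 0.186). With the array set in the fit the difference from WT was -0.04 (adjusted p = 0.966, range over 26 settings 3.48e-06 to 0.966, called in 17), and within set 3 the shSLX1shSLY mean exceeded shSLY 3 by 0.16. In shSLX1shSLY against WT the median change was 0.09 over the other sheath genes and -0.01 over the other fiber genes.

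Among 7 genes of the protein kinase A pathway, all tested, none was called in a comparison of 2 groups. Prkacb, a catalytic subunit of the kinase, was called for the interaction of both transgenes, as were 1.37% of all features. It had 6.43, 6.44 and 6.06 on shSLX1shSLY arrays, 7.05, 7.36 and 6.81 on shSLY, 6.85, 6.95 and 6.79 on shSLX1 and 6.56, 6.75, 6.42 and 6.67 on WT. Both single lines were above WT, and the double was below both single lines. Prkacb was called again with the array set in the fit, as were 2.77% of all features. None of 9 tested A-kinase anchoring proteins of other cell structures, and none of 10 tested genes of the mitochondrial sheath and the coupling of head and tail, was called in any comparison. In shSLX1shSLY against WT their median changes were 0.02 and 0.09.

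The genes with the most similar pattern over the 13 arrays were found by Pearson correlation among 11157 named genes. For Ropn1 they were Spata4 (0.99), Snx3 (0.99) and Ccdc89 (0.99), and for Fsip2l they were 4932411N23Rik (0.98), an X-linked gene, Adipoq (0.97) and Csrnp3 (0.97). Odf1 was most like Zfp821 (0.95), Copz1 (0.95) and Cdpf1 (0.94), and Fsip1 most like 1700109H08Rik (0.95), Zfp558 (0.94) and Dzip3 (0.93). The closest genes were less similar for Akap4 (Bco1 0.90, Efcab1 0.86, Tarsl2 0.84), for Spa17 (Tab3 0.89, Ccdc32 0.89, Pdgfb 0.88), for Akap3 (Cpa5 0.87, Glt8d2 0.87, Atp9b 0.87) and for Odf2 (Fam234a 0.83, 4930577N17Rik 0.81, Dyrk1b 0.80). These values describe arrays that share groups and sets. Between the scaffold genes Akap3 and Akap4 the correlation was 0.16, and between Odf1 and Odf2 it was -0.18.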

How the data were processed

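RNA of purified round spermatids was hybridized by the authors to 13 Illumina mouse whole-genome BeadChips, with GenomeStudio 2011.1 named per the labels. The deposited table gave for each array the mean bead intensity of 45281 probes, not normalized, and the authors' detection p-value against negative controls. A second deposited table held the authors' normalized intensity, used as an alternative. Per the methods, the series extends earlier work that used 4 WT, 2 shSLY and 2 shSLX1 batches, without giving their replicate numbers; arrays outside set 3 have this same makeup. The number of arrays limits the precision.

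Intensities were background-corrected and quantile-normalized with neqc (offset 16) of limma 3.58.1 in R 4.3.3. Of 20250 kept probes, the brightest of each gene was used. Probe names came from GEO's platform annotation, updated by gene identifier in RefSeq (34807 of 34885 probes with 1 gene name; 18 had several and 10378 none). All 13 arrays were fitted with 1 mean per group, moderated by eBayes (9 residual degrees of freedom, 5.64 added by the prior), and adjusted by Benjamini-Hochberg over all features. The sources do not say that the pools of a group were independent beyond being separate samples, and p-values measure the spread between these arrays. Named were all listed genes, up to 4 called genes a pathway list, and the 3 most correlated genes. The members and lists were chosen with earlier results of these data known. The fit was tested on simulated data with independent noise on each array and no array sets, so that test does not cover the sets. In all, 27 alternatives were tried.

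Same-numbered arrays deviated together in shSLY and WT (correlations 0.113 to 0.25) and in shSLY and shSLX1 (0.175 to 0.458), and not in the other pairs of groups. Within each of WT, shSLY and shSLX1, replicates 1 and 2 lay in the same array set and replicate 3 in another. Replicate number and array set therefore cannot be told apart in these correlations. In shSLY against WT the replicate block left 296 features called, against 452 without it, and called no listed gene.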

Additional observations from a re-analysis of the deposited data

Results flagged for a closer look

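Prkacb, a catalytic subunit of protein kinase A, was singled out because the effect of one transgene differed with the other in the test of the difference itself: the interaction of both transgenes was -1.02 on the log2 scale (SE 0.23, limma's adjusted p = 0.0391). The shSLX1shSLY arrays were lower than shSLY by a change of -0.76 and than shSLX1 by a change of -0.55, and all 3 lay below every array of both single lines. Over all features the interaction was called for 1.37%, 201 in all, of which 188 were lower. The call of Prkacb held in 14 of 26 alternative settings and in 4 of the 13 that left out 1 array. Over the 26 settings its interaction ran between -1.19 and -0.66, with adjusted p-values between 0.00685 and 0.379. With the array set in the fit the interaction was -0.94 (adjusted p = 0.0235). The median interaction was also negative over the macrophage (-0.89), red blood cell (-2.40), peritubular (-1.23) and Leydig (-0.37) genes. It was 0.04 over the Sertoli, 0.05 over the spermatocyte and -0.03 over the round spermatid genes. Whether other cells had a part in the Prkacb values was not tested.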

How the results depend on the processing

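Of the called differences of listed genes, that of Fsip2l in shSLX1shSLY against WT was kept in 24 of 25 settings, that of Fsip2l against shSLX1 in 23 of 25 and that of Ropn1 against WT in 17 of 26, and none of the 3 turned its direction. With the array set in the fit, 0 of the 8 genes were called in shSLX1shSLY against WT (2 without it) and 0 against shSLX1 (1 without it), and 1 in shSLY against shSLX1 (0 without it). In shSLX1shSLY against WT the listed genes called numbered 1 with no filter on dim probes, 1 where detection at p under 0.01 on all 13 arrays was required (0 against shSLX1) and 4 with every kept probe (2 against shSLX1). With array quality weights they numbered 1 in shSLY against WT (5.07% of all features called), 2 in shSLX1shSLY against shSLY (17.7%), 2 against shSLX1 (16.2%), 1 in shSLY against shSLX1 (13.6%) and 1 for the interaction (8.52%). Without both replicate 3 arrays of the single lines, chosen after seeing the data, they numbered 2 in shSLX1shSLY against shSLY (16% of all features called), 2 against shSLX1 (20.3%), 1 in shSLY against shSLX1 (11.6%) and 2 for the interaction (11.3%), and with median scaling 1 in shSLY against shSLX1. With 1 array left out they numbered 1 to 2 in shSLX1shSLY against WT, 0 to 2 against shSLX1, 0 to 1 against shSLY and 0 to 1 in shSLY against shSLX1. The replicate block called 2 in shSLX1shSLY against WT, 1 against shSLX1 and 0 elsewhere, and changed no other call of a listed gene; over all features it called 62 in shSLX1shSLY against shSLY (15 without it). Requiring detection on all 13 arrays left Fsip2l and Spa17 out, so they have 1 setting fewer. Over all features the called number depended more on the setting: 44 with the array set in the fit to 3262 with median scaling in shSLX1shSLY against WT (1303 in the fit reported, 262 without shSLX1shSLY 1), 368 with median scaling to 2982 without both replicate 3 arrays against shSLX1 (1105), 0 with only the groups compared to 2597 with array weights against shSLY (15), 193 with median scaling to 743 with array weights in shSLY against WT (452), 110 with median scaling to 350 with the array set in the fit in shSLX1 against WT (261), 461 with only the groups compared to 1995 with array weights in shSLY against shSLX1 (1003), and 75 with detection on all 13 arrays to 1659 without both replicate 3 arrays for the interaction (201).

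Values that turned sign were, but for Ccdc42, of differences that were not called. With median scaling they were -0.044 for Akap3 in shSLY against WT, -0.11 for Akap4, -0.17 for Fsip1, -0.18 for Fsip2l and -0.22 for Ropn1 in shSLX1 against WT, -0.24 for Akap4, -0.32 for Fsip1 and -0.32 for Odf2 in shSLX1shSLY against WT, -0.36 for Odf2 in shSLX1shSLY against shSLY, -0.014 for Akap3 and -0.13 for Akap4 in shSLX1shSLY against shSLX1, 0.090 for Odf1 in shSLY against shSLX1. With the array set in the fit they were -0.034 for Akap3 in shSLY against WT, 0.035 for Akap3, -0.45 for Fsip2l, -0.048 for Ropn1 and 0.16 for Odf1 in shSLX1 against WT, 0.053 for Akap3, 0.0051 for Odf1 and -0.039 for Ccdc42 in shSLX1shSLY against WT, 0.088 for Akap3, 0.057 for Akap4, -0.22 for Fsip2l, -0.0037 for Ropn1, 0.13 for Odf1 and -0.012 for Odf2 in shSLX1shSLY against shSLY, -0.33 for Spa17 in shSLX1shSLY against shSLX1, -0.070 for Akap3 in shSLY against shSLX1. With array quality weights they were -0.31 for Fsip2l and -0.12 for Ropn1 in shSLX1 against WT, -0.037 for Akap4 in shSLX1shSLY against shSLX1. Without both replicate 3 arrays of the single lines they were 0.042 for Odf1 in shSLY against WT, -0.35 for Fsip2l and -0.19 for Ropn1 in shSLX1 against WT, -0.027 for Akap4 in shSLX1shSLY against shSLX1, 0.044 for Odf1 in shSLY against shSLX1, -0.0049 for Akap3 in the interaction. The cause was not tested.

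With 1 array left out, the ranges that crossed 0 were Akap3 -0.13 to 0.15 in the interaction, -0.081 to 0.081 in shSLX1shSLY against WT, -0.23 to 0.0047 in shSLX1shSLY against shSLY, -0.0090 to 0.23 in shSLY against WT; Akap4 -0.046 to 0.076 in shSLX1shSLY against shSLX1, -0.064 to 0.059 in shSLX1shSLY against shSLY, -0.026 to 0.067 in shSLY against shSLX1; Odf1 -0.082 to 0.0082 in shSLX1 against WT, -0.31 to 0.042 in shSLY against WT, -0.28 to 0.070 in shSLY against shSLX1; Odf2 -0.020 to 0.18 in the interaction, -0.15 to 0.052 in shSLX1 against WT, -0.0040 to 0.062 in shSLX1shSLY against shSLY; Spa17 -0.28 to 0.0035 in shSLX1 against WT, -0.24 to 0.068 in shSLX1shSLY against WT, -0.10 to 0.20 in shSLX1shSLY against shSLX1; Fsip2l -0.35 to 0.44 in shSLX1 against WT; and Ropn1 -0.19 to 0.33 in shSLX1 against WT. The dim signals of Spa17, Ropn1l and Fsip2l limit what could be seen of them.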
